A study of Mus musculus with 4 samples.

Results

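A set of 10 genes that mark plasmacytoid dendritic cells (pDCs) was followed through 2 single-cell libraries sorted as hepatic CD4 T cells. The genes were taken by symbol: Siglech, Bst2, Ccr9, Klk1, Cox6a2, Ly6d, Cd300c, Tcf4, Irf8 and Spib. All 10 were found among the 32285 genes of both count tables. The 2 libraries are labelled WT and dKO, and each pooled 2 male mice whose cells cannot be told apart. The mice had been fed CD, a choline-deficient diet with 60 kcal% fat and 0.1% methionine, for 8 weeks, and no mice on a standard diet were analysed here; their age was not given in the labels. The dKO mice carried Nr4a1 fl/fl and Nr4a2 fl/fl with Cd4-Cre, in which a Cre driven by Cd4 is meant to delete both nuclear receptors in T cells; the controls are given as WT with no further allele. A matched T cell receptor library gave the assembled TRA and TRB chains of each cell.

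pDCs are the innate cells that sense viral nucleic acid through endosomal toll-like receptors and answer with large amounts of type I interferon. Their identity is set by Tcf4 (the E protein E2-2), with Spib and Irf8 as further transcription factors, and is opposed by the E protein inhibitor Id2. On their surface they carry Siglec-H, which signals through the adaptor DAP12, and BST2 (tetherin, PDCA-1). Mouse pDCs can also carry CD4, and they rearrange no complete T cell receptor.

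After filtering, 10556 cells (23437516 UMIs) remained in the library labelled WT and 17462 cells (37794986 UMIs) in the library labelled dKO, with medians of 1679 and 1685 UMIs a cell. The libraries shared 245 cell barcodes. The targeted genes went against the labels: Nr4a1 stood at 725 CPM (UMIs per 1000000 UMIs) in all cells of the library labelled WT and at 1659 CPM in those labelled dKO, and Nr4a2 at 183 and 306 CPM. The counts do not show whether these transcripts hold the floxed part or whether the libraries were exchanged. The groups are therefore called by their labels. Foxp3 is the regulatory T cell factor. T cell-like cells with a Foxp3 UMI and under 2 cycling markers were 3.64% of the cells labelled WT and 15.9% of those labelled dKO. By flow cytometry the paper reports a higher frequency of Foxp3+ cells among liver CD4 T cells of dKO mice on this diet. That reading is of protein within CD4 T cells, while the shares here are of RNA within all kept cells. Within T cell-like cells the counts were 384 of 6460 and 2783 of 10039. With 1 library per label there is no replicate, so no comparison has a p-value. All intervals below are exact 95% intervals that cover counting error only.

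Cells were classed by markers that exclude the 10 genes. A cell with at least 3 of 13 pDC markers and no other gate was called pDC-like, and one with at least 3 of 8 T cell markers and no other gate was called T cell-like. By this rule 1108 cells labelled WT (10.5%, 9.92 to 11.1) and 3083 cells labelled dKO (17.7%, 17.1 to 18.2) were pDC-like, and 6460 and 10039 were T cell-like. These are shares of sorted cells, not of the liver. Some gate markers differed between the libraries in pDC-like cells. Gm21762 stood at 365 CPM where labelled WT and 18.1 CPM where labelled dKO, Cd209d at 251 and 95.4 CPM and Smim5 at 396 and 247 CPM. The other pDC gate markers differed less than 1.5-fold, and all 13 summed to 5881 and 5144 CPM. The part of these differences in the shares was not tested. The T cell gate holds Cd3e and the receptor constant genes Trac, Trbc1 and Trbc2, so a low share of receptor contigs in pDC-like cells is in part built in. A TRB contig was present in 2.17% and 0.973% of pDC-like cells against 45.3% and 32.8% of T cell-like cells. Cd4, the gene of the sorted protein, was read in pDC-like cells at 226 CPM (207 to 246) where labelled WT and 306 CPM (295 to 317) where labelled dKO, beside 254 and 871 CPM in T cell-like cells.

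On GRCm38 (GENCODE M21) the genes are spread over 6 chromosomes, and all are protein-coding. Chromosome 7 holds 4 of them, Siglech (chr7:55768178-55778925), Klk1 (chr7:44225360-44229618), Spib (chr7:44525993-44532071) and Cox6a2 (chr7:128205435-128206387). Chromosome 8 holds Bst2 (chr8:71534255-71537456) and Irf8 (chr8:120736358-120756694). Ccr9 (chr9:123678439-123784330), Cd300c (chr11:114956116-114969157), Ly6d (chr15:74762056-74763620) and Tcf4 (chromosome 18) stand alone.

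The promoters were read first, because Tcf4 acts by binding E-boxes and Bst2 is an interferon-induced gene. RefSeq (GRCm38.p6) promoters were matched for 7 of the 10 genes, and the 250 bases before each start were searched on both strands. The E-box CAGGTG was present in 6 of the 7, all but Spib, and in 19.4% of all 27025 gene symbols with a promoter, or 17.2% of the 32851 promoters. The window for Irf8 belongs to its second RefSeq start, and the first start held none. The RefSeq starts used for Irf8, Ccr9 and Cd300c lie inside the gene spans given above. In the lines that follow the E-box is in capitals, as read on the strand of the gene, so that CACCTG is CAGGTG on the other strand.

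Siglech, chr7:55768144-55768183, plus strand: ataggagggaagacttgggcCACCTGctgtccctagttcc
Klk1, chr7:44225253-44225298, plus strand: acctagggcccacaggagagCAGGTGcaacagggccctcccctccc
Ccr9, chr9:123767106-123767151, plus strand: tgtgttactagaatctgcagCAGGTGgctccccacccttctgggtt
Cd300c, chr11:114960549-114960594, minus strand: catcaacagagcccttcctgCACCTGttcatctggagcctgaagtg
Bst2, chr8:71537652-71537697, minus strand: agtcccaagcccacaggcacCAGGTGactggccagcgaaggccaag
Irf8, second start, chr8:120738414-120738459, plus strand: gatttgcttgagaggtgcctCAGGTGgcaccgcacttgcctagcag

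The E-box lay 20 bases before the start in Siglech, 67 in Cd300c, 85 in Ccr9, 87 in Klk1 and 205 in Bst2 and at the second start of Irf8. An interferon-type motif, GAAA, any 2 bases and GAAA again, was found in 2 of the 7, Bst2 and Cd300c, and in 3.46% of all symbols. In Bst2 it occurred in 2 overlapping copies, beginning 130 and 124 bases before the start, which are shown in capitals.

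Bst2, chr8:71537567-71537622, minus strand: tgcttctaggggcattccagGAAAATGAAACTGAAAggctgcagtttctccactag
Cd300c, chr11:114960709-114960757, minus strand: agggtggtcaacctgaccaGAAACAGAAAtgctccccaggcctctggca

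CAGCTG, another E-box, and GAGGAAGT, an ETS-type motif, were in none of the 7 and in 14.7% and 2.79% of all symbols. None of these motifs overlapped another kind in the genes shown. A match is a run of letters and was not tied to binding.

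All 10 genes were over 4-fold higher in pDC-like than in T cell-like cells in both libraries, where 7.47% of the 12332 genes with at least 20 UMIs in the library labelled WT and 8.4% of 13011 in that labelled dKO were. Their median log2 ratio was 8.65 and 7.87, against −0.24 and −0.22 over all genes tested. This gap is in part built in. The 10 were taken as pDC genes, and the gate markers were chosen with earlier results of these data known. The genes did not separate the classes to the same degree. Set against T cell-like cells only, Siglech, Klk1, Cox6a2, Ly6d, Cd300c and Spib formed a nearly exclusive set. Bst2, Irf8, Tcf4 and, in the library labelled dKO, Ccr9 were also read in T cell-like cells. This split was read with cells of several gates kept apart, where the log2 ratios ran from 4.97 to 9.52 and from 4.58 to 8.98. With such cells assigned to 1 class, they ran only from 4.29 to 5.72 where labelled WT and from 3.47 to 4.33 where labelled dKO.

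Siglech, the Siglec-H receptor, stood at 2659 CPM (2594 to 2726) in pDC-like cells of the library labelled WT and at 2133 (2103 to 2163) in those labelled dKO. In T cell-like cells it stood at 5.18 and 8.14 CPM, a 513-fold and 262-fold difference. Bst2 had 4009 and 4287 CPM in pDC-like cells but also 128 and 165 CPM in T cell-like cells, so that its fold was 31.3 and 26.0. Bst2 was thus the more widely read of these surface proteins, and Siglech stood in T cell-like cells at 0.195% and 0.382% of its pDC-like level.

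Cd300c, an activating immunoglobulin-like receptor, stood at 475 CPM (448 to 504) and 354 CPM (342 to 366) in pDC-like cells. It had 15 UMIs among the 6460 T cell-like cells labelled WT and 25 among the 10039 labelled dKO, a 496-fold and 268-fold difference in level. Ly6d, a GPI-anchored protein of lymphoid progenitors and B cells, stood at 2318 CPM (2257 to 2380) and 3278 CPM (3241 to 3315), or 483-fold and 470-fold above T cell-like cells. With cells of several gates kept apart, both were therefore nearly exclusive to pDC-like cells when set against T cells.

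Klk1, a tissue kallikrein protease, stood at 1878 CPM (1823 to 1934) and 1816 CPM (1789 to 1844) in pDC-like cells and had the widest gap to T cell-like cells of the 10 in the library labelled WT, 734-fold, and 404-fold in that labelled dKO. It lies on chromosome 7 in a cluster of near-identical kallikrein genes, and how the reads were shared among these copies was not tested. The copy Klk1b27 was read in the same cells, at 207 and 109 CPM in pDC-like and 6.46 and 6.93 CPM in T cell-like cells, while Klk8 went the other way, at 7.14 and 0.978 CPM against 95.1 and 62.1 CPM. Cox6a2, the muscle-type isoform of a cytochrome c oxidase subunit, stood at 2248 CPM (2188 to 2309) and 1254 CPM (1232 to 1278), 525-fold and 505-fold above T cell-like cells. Its common isoform Cox6a1 was level between the classes, at 326 and 385 CPM in pDC-like and 306 and 352 CPM in T cell-like cells. Of this pair, the 4-fold line was passed by Cox6a2 and not by Cox6a1.

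Ccr9, the receptor for the gut chemokine CCL25, stood at 772 CPM (738 to 809) and 861 CPM (842 to 880) in pDC-like cells. Its gap to T cell-like cells differed between the libraries, 186-fold where labelled WT and 23.9-fold where labelled dKO. The level in pDC-like cells was nearly the same in both, and the level in T cell-like cells was not.

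The transcription factors were ordered in the same way in both libraries. Spib, an ETS factor, stood at 277 CPM (256 to 299) and 265 CPM (255 to 276) and was 333-fold and 209-fold above T cell-like cells. Tcf4 stood at 1589 CPM (1538 to 1640) and 1453 CPM (1428 to 1477), 160-fold and 83.5-fold above. Irf8 stood at 2258 CPM (2198 to 2319) and 1813 CPM (1786 to 1841), 106-fold and 39.2-fold above.

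**Figure D1:**
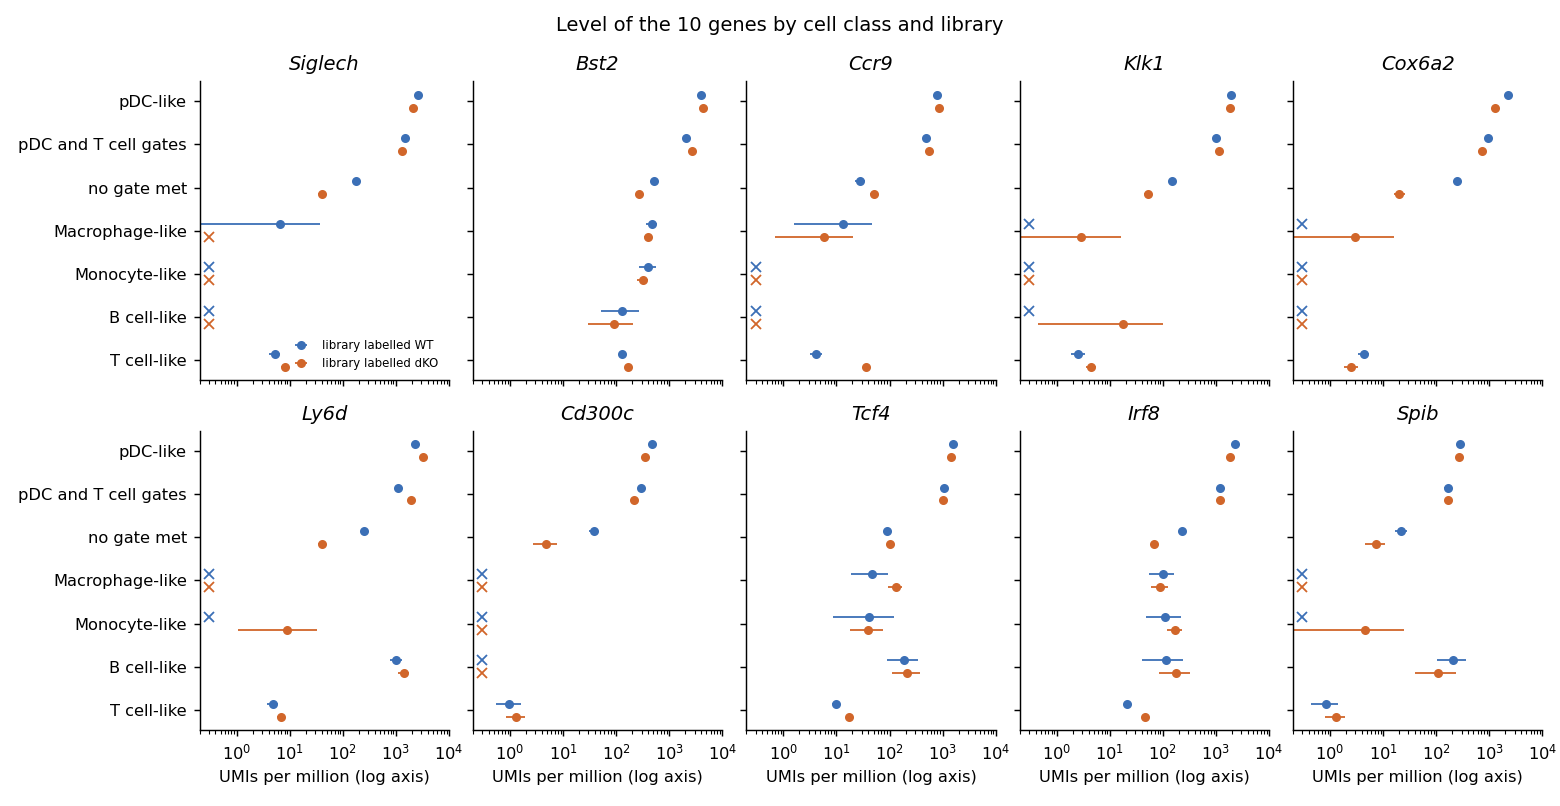
Level of each of the 10 genes, in CPM on a log axis, by cell class (rows) in the library labelled WT (blue) and that labelled dKO (orange); bars are exact 95% Poisson intervals and a cross marks a class with 0 UMIs. pDC-like cells are highest for every gene, from 265 CPM for Spib to 4287 CPM for Bst2 in the library labelled dKO, and Ly6d and Spib are also read in B cell-like cells.

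Other classes were small, and their intervals are wide. B cell-like cells (25 labelled WT, 26 labelled dKO) held Ly6d at 1009 CPM (758 to 1317) and 1392 CPM (1100 to 1737), Spib at 206 and 107 CPM, Tcf4 at 187 and 214 CPM and Irf8 at 112 CPM (41.2 to 244) and 178 CPM (85.6 to 328), and they had no UMI of Siglech, Ccr9, Cox6a2 or Cd300c, where 0 allows up to 3 UMIs. Ly6d, Spib, Tcf4 and Irf8 were each higher in B cell-like than in T cell-like cells of both libraries. Macrophage-like cells (71 and 120) held Bst2 at 467 CPM (365 to 589) and 393 CPM (330 to 465), Irf8 at 98.7 and 89.6 CPM and Tcf4 at 46.1 and 130 CPM, and no UMI of Ly6d, Cd300c or Spib. Irf8 was read at 756 CPM (432 to 1228) in 5 and 998 CPM (657 to 1452) in 8 cDC1-like cells and at 874 CPM (526 to 1365) in 10 and 491 CPM (224 to 932) in 7 NK-like cells. Irf8 was thus also read in the few cells of these other gates.

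Cells that met at least 3 pDC markers, with or without another gate, were 1436 of the cells labelled WT and 4093 of those labelled dKO. They held 94.2% and 98.9% of all Siglech UMIs, and between 78.8% (Bst2) and 94.96% (Ccr9) of the UMIs of each gene in the library labelled WT. In the library labelled dKO this share lay between 92.2% (Bst2) and 99.2% (Cox6a2). Where labelled WT, cells that met no gate held a further 4.95% of Siglech and 8.56% of Cox6a2 UMIs. These cells were shallow, with a median of 1048 UMIs, and the gate needs 3 markers to be read. When each cell was thinned to 1000 UMIs, 4.32% of such cells held at least 5 of the 10 genes, and in the library labelled dKO 1.52% did. By the same measure 93.8% and 92.0% of pDC-like and 0.171% and 0.0722% of T cell-like cells held at least 5.

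Thinned to 1000 UMIs, Bst2 was detected in 97.3% (96.0 to 98.3) of 858 pDC-like cells labelled WT and 97.8% (97.2 to 98.2) of 3069 labelled dKO, and Siglech in 86.8% (84.4 to 89.0) and 86.0% (84.7 to 87.2). In T cell-like cells the shares were 11.9% and 14% for Bst2 and 0.580% and 0.686% for Siglech. This thinning left out 250 and 14 pDC-like cells; without it, Siglech was detected in 91.3% and 98.6% of pDC-like cells. Cox6a2 was the gene whose share differed most between the libraries, at 80.9% (78.1 to 83.5) of pDC-like cells labelled WT and 54.3% (52.5 to 56.1) of those labelled dKO. Tcf4 was detected in 69.3% and 71.9%, Ccr9 in 47.2% and 51.7%, and Spib in 23.2% and 22.3%. pDC-like cells without a Ccr9 UMI were not short of the other 9 genes: in the library labelled dKO Siglech was found in 86.3% of the cells with and 85.6% of the cells without Ccr9. The one gene whose intervals parted was Tcf4 in the library labelled WT, found in 74.6% (70.0 to 78.7) with and 64.7% (60.1 to 69.1) without.

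The T cell receptor gave a split that uses no gene of the count table. Cells without a TRB contig (7101 labelled WT and 13366 labelled dKO) had higher levels of all 10 genes than cells with one (3455 and 4096). Where labelled WT, all 10 passed 4-fold, and 3.21% of all genes tested did. Where labelled dKO, 8 did, with 4.32% of all genes; the other two, Bst2 and Ccr9, differed 3.91-fold and 3.76-fold. Siglech stood at 642 CPM (628 to 655) without and 110 CPM (103 to 117) with a contig in the library labelled WT, and at 890 CPM (879 to 901) and 180 CPM (171 to 188) in that labelled dKO. The largest ratio was that of Cox6a2, 7.51-fold, where labelled WT and that of Klk1, 5.73-fold, where labelled dKO.

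The UMIs left in cells with a contig were concentrated in few cells. Of the cells with a TRB contig, 122 of 3455 labelled WT and 261 of 4096 labelled dKO also had at least 3 pDC markers. These held 95.8% (94.4 to 96.9) and 96.7% (95.8 to 97.5) of the Siglech UMIs found with a contig. For Bst2 this share was 54.6% (52.6 to 56.6) and 72.6% (71.4 to 73.9), and for Ccr9 it was 89.8% (86.3 to 92.7) and 70.8% (67.9 to 73.6). Their median depth was 5019 and 4745 UMIs, against 2183 and 1681 in the other cells with a contig. In the latter Siglech stood at 4.98 and 6.85 CPM, close to its level in T cell-like cells, and Klk1 at 2.76 and 3.55 CPM.

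**Figure D2:**
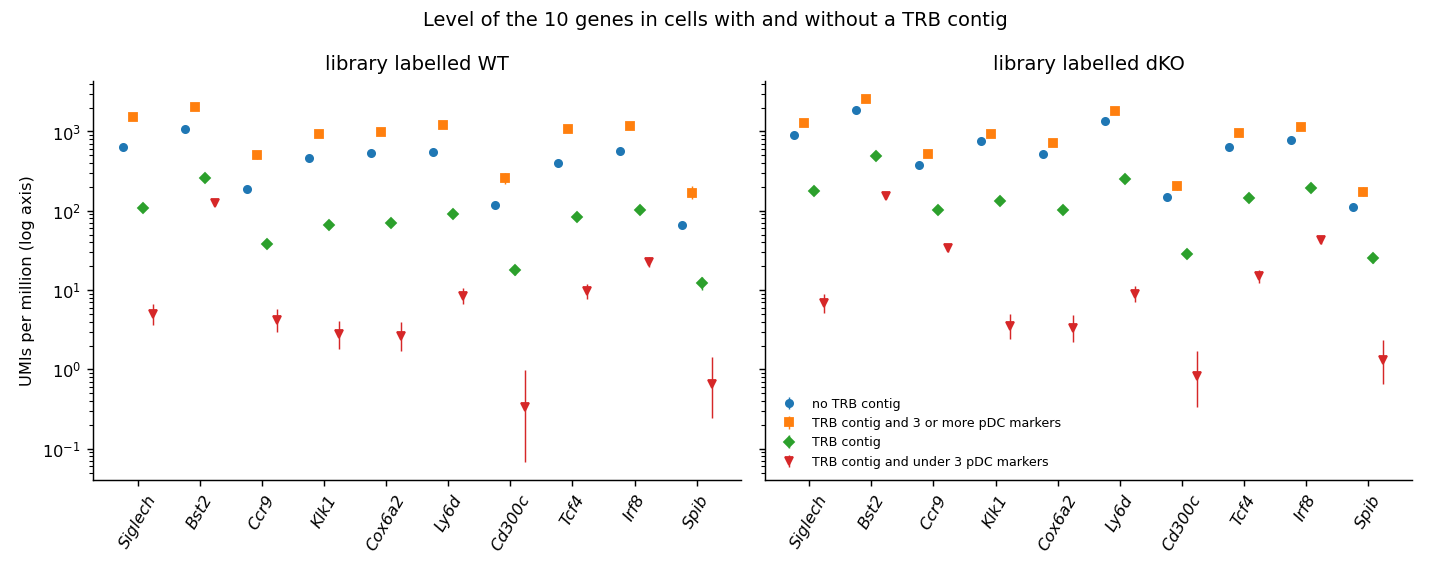
Level of the 10 genes, in CPM on a log axis, in cells without a TRB contig, with one, and with one split by whether at least 3 pDC markers were read; bars are exact 95% Poisson intervals. Siglech falls from 642 to 110 CPM between cells without and with a contig in the library labelled WT, and to 4.98 CPM in the cells with a contig and under 3 pDC markers.

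Cells that met the pDC and the T cell gates together (192 labelled WT, 651 labelled dKO) had medians of 4367 and 4346 UMIs, and 42.2% and 31.8% held a TRB contig. Each of the 10 genes was lower there than in pDC-like cells. The log2 ratio ran from −1.23 (Cox6a2) to −0.59 (Tcf4) in the library labelled WT and from −0.78 (Cox6a2) to −0.53 (Tcf4) in that labelled dKO. The 8 T cell markers summed to 2188 and 1970 CPM in these cells and to 4134 and 5067 CPM in T cell-like cells. The 2 sets of genes were thus both present at reduced levels; whether these are pairs of cells in 1 droplet was not tested. The 24 and 30 pDC-like cells with a TRB contig had lower levels of Siglech than those without, by a log2 ratio of −0.76 (−1.04 to −0.49) and −0.34 (−0.54 to −0.13).

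In T cell-like cells, with cells of several gates kept apart, the genes fell into a low set and a readable set. As a percentage of the level in pDC-like cells of the same library, Siglech, Klk1, Cox6a2, Ly6d, Cd300c and Spib stood between 0.136% (Klk1) and 0.30% (Spib) in the library labelled WT and between 0.198% (Cox6a2) and 0.478% (Spib) in that labelled dKO. Bst2 stood at 3.20% (3.05 to 3.36) and 3.84% (3.70 to 3.98), and Irf8 at 0.941% (0.839 to 1.05) and 2.55% (2.38 to 2.73). Tcf4 lay between, at 0.624% (0.528 to 0.733) and 1.20% (1.07 to 1.34). The percentages of Bst2, Irf8 and Tcf4 lay outside the range of the 6 low genes in both libraries, and that of Ccr9 did so most clearly in the library labelled dKO, at 4.19% (3.87 to 4.53) against 0.538% (0.414 to 0.689) where labelled WT. The 13 pDC markers summed to 87.9 and 79.2 CPM in T cell-like cells, and the part of free RNA in these levels was not tested. In T cell-like cells with none of them, Siglech was at 0.127% and 0.268% and Ccr9 at 0.459% and 4.04%.

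Ccr9 in T cell-like cells differed most between the libraries. It had 65 UMIs in 56 of the 6460 cells labelled WT, or 4.16 CPM (3.21 to 5.30), and 682 UMIs in 497 of the 10039 cells labelled dKO, or 36.1 CPM (33.4 to 38.9), an 8.67-fold ratio. As a log2 ratio this was 3.12. With cells of several gates assigned to 1 class, the highest log2 ratio of any of the 10 genes was 2.11. Ccr9 was present in every T cell-like class of the library labelled dKO. Foxp3 T cells, those with a Foxp3 UMI and under 2 cycling markers, stood at 53.3 CPM (47.5 to 59.7), and naive-type T cells at 14.1 CPM. Against the rest of the T cell-like cells of that library the log2 ratio in Foxp3 T cells was 0.89 (0.67 to 1.11). That rest holds the cycling cells, with or without a Foxp3 UMI. Foxp3 T cells were 384 of the cells labelled WT, with 2 Ccr9 UMIs, and 2783 of those labelled dKO. Ccr9 was not the mark of 1 clone: among T cell-like cells labelled dKO with a clonotype it was read in 166 of 2417 clonotypes, and the clonotype with the most UMIs, which was also the largest with 356 cells, held 9.55% of them.

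Irf8 showed a smaller difference of the same kind, at 21.2 CPM (19.0 to 23.6) in T cell-like cells labelled WT and 46.3 CPM (43.3 to 49.4) in those labelled dKO, and at 62.2 CPM (55.9 to 69.1) in the Foxp3 T cells of the latter. Its log2 ratio between Foxp3 T cells and the rest was 0.66 (0.46 to 0.85) where labelled dKO and −0.20 (−0.93 to 0.45) where labelled WT. Of the 10 genes, 6 were at least 1.5-fold higher in T cell-like cells labelled dKO (Siglech, Ccr9, Klk1, Tcf4, Irf8 and Spib), beside 12.2% of all genes, and 1, Cox6a2, was at least 1.5-fold lower, beside 13.8%. The call on Cox6a2 was lost with gates of 2 or 4 markers, and its log2 ratio turned to 0.63 with cells of several gates assigned to 1 class and to 0.26 in cells of 2000 to under 5000 UMIs. The interval of Spib, with 13 and 24 UMIs, spanned 0 (−0.42 to 1.71). Of the 155 and 329 UMIs of Tcf4, 96 and 158 lay in T cell-like cells with no pDC marker. Averaging each cell's own CPM left 3 of the 6. pDC-like cells also made up more of the library labelled dKO, and the part of this in the low genes was not tested.

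**Figure D3:**
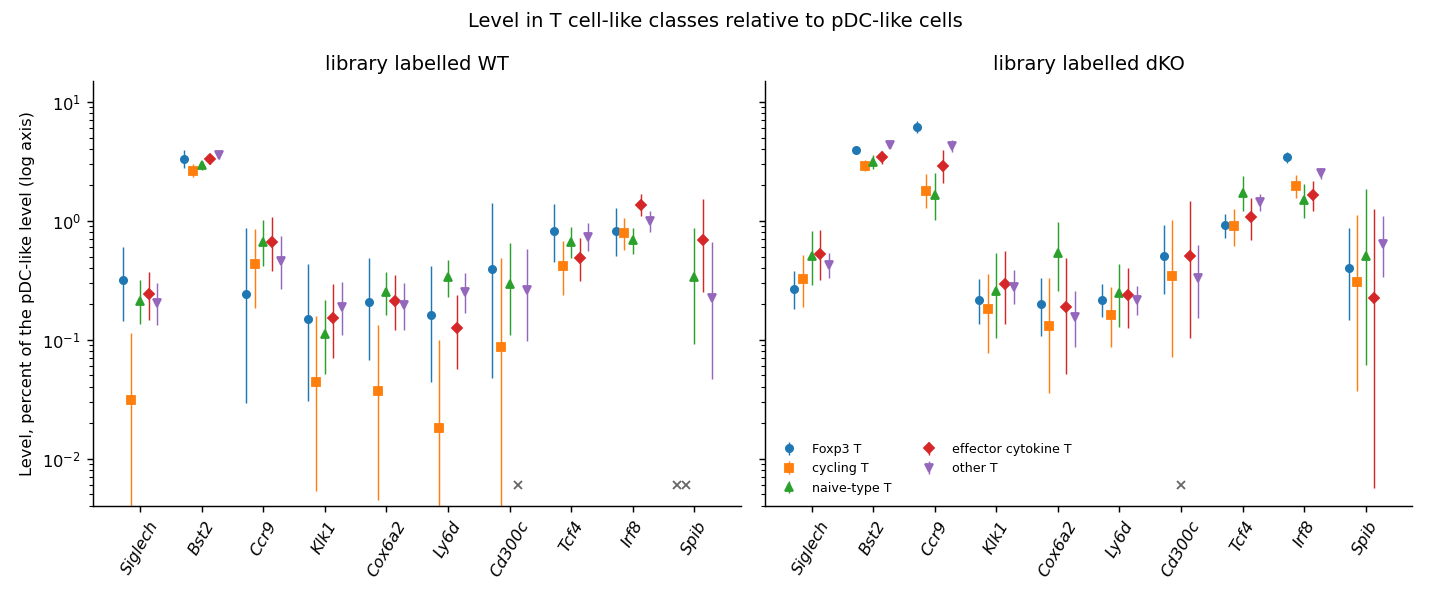
Level of each gene in 5 classes of T cell-like cells, as a percentage of its level in pDC-like cells of the same library on a log axis, for the library labelled WT (left) and that labelled dKO (right); bars are exact 95% intervals and a cross marks 0 UMIs. Bst2 stands between 2.64% and 4.31% in all of them, and Ccr9 reaches 6.19% in Foxp3 T cells labelled dKO.

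Within pDC-like cells the libraries differed less. None of the 10 genes was at least 1.5-fold higher where labelled dKO, beside 7.31% of all genes tested, and 1, Cox6a2, was at least 1.5-fold lower, beside 11.2%. The log2 ratio of dKO to WT was −0.84 (−0.89 to −0.79) for Cox6a2, 0.50 (0.46 to 0.54) for Ly6d, −0.43 (−0.52 to −0.33) for Cd300c and −0.32 for both Siglech (−0.36 to −0.28) and Irf8 (−0.36 to −0.27). Tcf4 was at −0.13 (−0.18 to −0.08), Klk1 at −0.05 and Spib at −0.06 (−0.19 to 0.06). Bst2 and Ccr9 were at 0.10 and 0.16. Genes listed as markers of other cell types differed between the libraries in both directions. In pDC-like cells the 8 T cell markers summed to 174 and 74.7 CPM and the 8 monocyte markers to 123 and 65.2 CPM. The monocyte sum was mostly Ccr2, at 101 and 51.3 CPM. F13a1, Vcan, Ace and Treml4 had no UMI where labelled WT and at most 4 where labelled dKO. The 7 cDC1 markers summed to 299 and 402 CPM, mostly Clec9a, at 205 and 273 CPM, and Xcr1 had 2 and 0 UMIs. The part of these genes in the ratios of the 10 was not tested.

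Depth differed between these cells, with a median of 1605 UMIs where labelled WT and 2887 where labelled dKO, and the levels moved with it in the library labelled WT. There, from the 404 cells with 1000 to under 2000 UMIs to the 218 with 3000 to under 5000, Ccr9 went from 514 to 1017 CPM, a log2 ratio of 0.98 (0.79 to 1.18), and Tcf4 from 1080 to 1955 CPM, or 0.86 (0.72 to 0.99). Cox6a2 went from 2748 to 1843 CPM, or −0.58 (−0.68 to −0.47), Bst2 from 4692 to 3481 CPM and Ly6d from 2695 to 2012 CPM. Ccr9, Tcf4 and Siglech were thus higher in the deeper of these 2 steps and Cox6a2, Bst2 and Ly6d in the shallower. The 63 cells with at least 5000 UMIs did not extend this: Ccr9 stood there at 865 CPM, Tcf4 at 1825 CPM, Cox6a2 at 2207 CPM (2058 to 2363) and Bst2 at 3650 CPM.

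Where labelled dKO, the same step left Ccr9 at 851 and 889 CPM, a log2 ratio of 0.06 (−0.09 to 0.22), Tcf4 at −0.08 (−0.19 to 0.03) and Cox6a2 at 0.07 (−0.06 to 0.19). Bst2, at −0.21 (−0.28 to −0.15), Klk1, at −0.17 (−0.26 to −0.07), and Ly6d, at −0.11 (−0.18 to −0.03), were lower in the deeper step there too. Only 14 of its pDC-like cells had under 1000 UMIs, beside 250 where labelled WT. Other readings changed with depth in the library labelled WT too: Malat1, a nuclear RNA, stood at 4796 and 8568 CPM, Ptprc at 640 and 1302 CPM, and ribosomal protein genes at 20.4% and 14.7% of UMIs. Where labelled dKO, Malat1 stood at 8571 and 7707 CPM and ribosomal protein genes at 16.4% and 15.9%. Their part in the levels of the 10 genes was not tested. A shallow cell must hold its 3 pDC markers in fewer UMIs, and the median number of pDC markers was 5 and 9 in these 2 steps where labelled WT and 5 and 7 where labelled dKO.

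**Figure D4:**
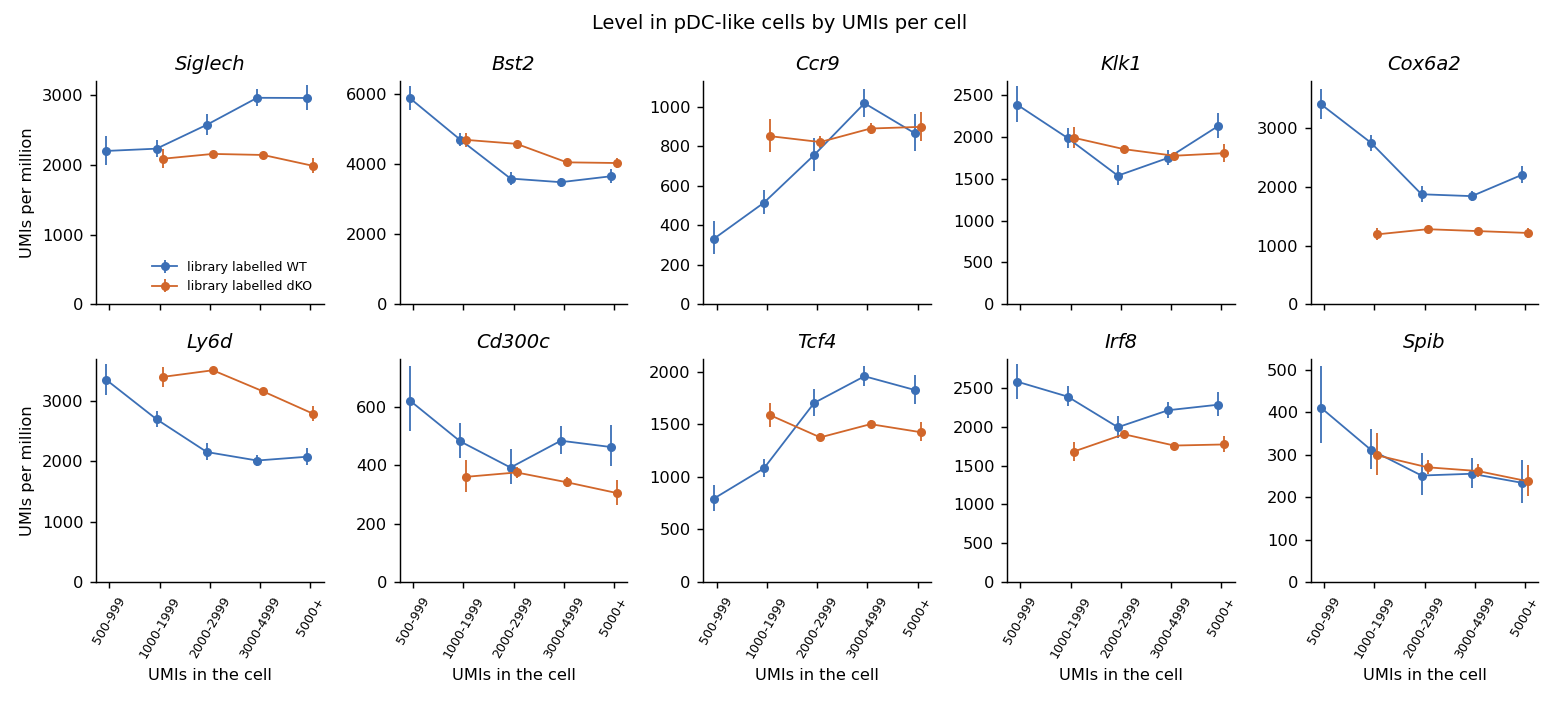
Level of the 10 genes in pDC-like cells, in CPM, by the number of UMIs in the cell, for the library labelled WT (blue) and that labelled dKO (orange); bars are exact 95% Poisson intervals, and steps with under 50 cells are left out. In the library labelled WT Ccr9 and Tcf4 climb and Cox6a2 and Bst2 fall up to the step from 3000 UMIs, and Cox6a2 is higher again in the deepest step, while in that labelled dKO Ccr9 stays between 821 and 898 CPM.

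Restricted to cells with 2000 to under 5000 UMIs (391 labelled WT, 2672 labelled dKO), the ratio between libraries kept its sign for Cox6a2, −0.55 (−0.62 to −0.49), Ly6d, 0.69 (0.63 to 0.75), Siglech, −0.40 (−0.45 to −0.35), Cd300c, −0.34 (−0.47 to −0.21), Irf8, −0.23 (−0.29 to −0.17) and Bst2, 0.29 (0.24 to 0.33). That of Tcf4 widened to −0.38 (−0.44 to −0.31). Ccr9 turned to −0.12 (−0.21 to −0.03) and Klk1 to 0.11 (0.04 to 0.18), and Spib, at 0.07 (−0.10 to 0.24), still spanned 0. In these cells Ly6d passed 1.5-fold and Cox6a2 did not.

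**Figure D5:**
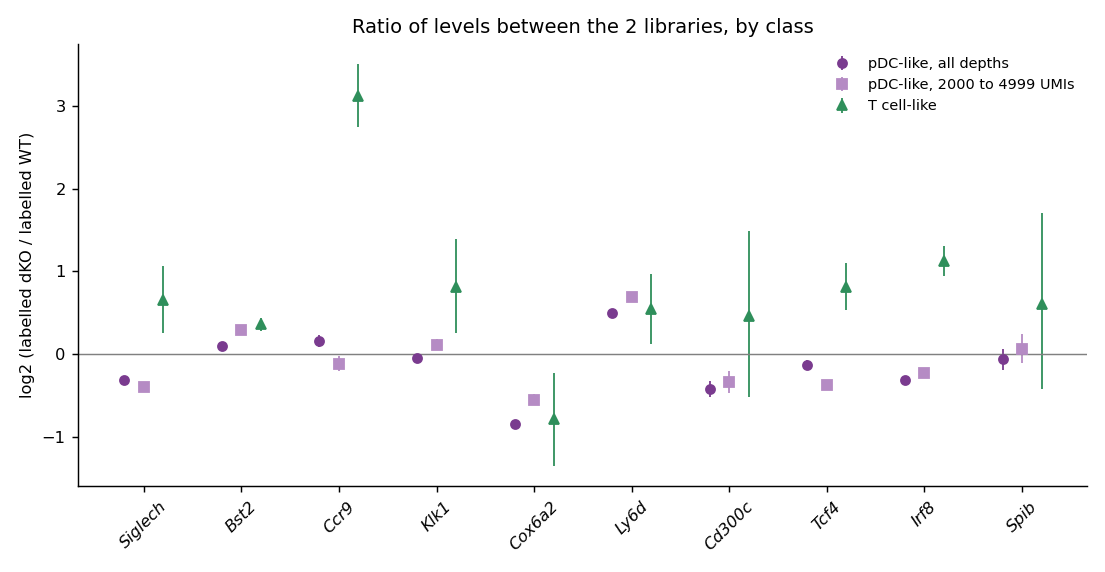
log2 ratio of the level in the library labelled dKO to that labelled WT for the 10 genes in pDC-like cells, in pDC-like cells of 2000 to under 5000 UMIs and in T cell-like cells; bars are exact 95% intervals for counting error. Ccr9 in T cell-like cells stands apart at 3.12, and in pDC-like cells the ratios lie between −0.84 and 0.50 at all depths together and between −0.55 and 0.69 at 2000 to under 5000 UMIs.

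The genes that act with the 10 were read in the same 2 classes. Of 17 genes of nucleic acid sensing and interferon, 12 had at least 20 UMIs in each library, and 6 and 7 of these were at least 4-fold higher in pDC-like cells and none lower, beside 7.47% and 8.4% higher and 11.1% and 14.5% lower over all genes. Tlr7 stood at 186 and 168 CPM in pDC-like cells and 1.85 and 1.53 CPM in T cell-like cells, Tlr9 at 54.2 and 62.5 CPM with 3 and 4 UMIs in T cell-like cells, and their transporter Unc93b1 at 772 and 852 CPM against 22.2 and 23.1 CPM. The shared signalling genes differed less: Irak4 and Traf6 had log2 ratios between −0.22 and −0.03, Myd88 of 0.47 and 0.42, and Irak1 of 0.76 and 0.68. Interferon genes themselves were near 0: Ifna1, Ifna4 and Ifna5 had no UMI in either class, and Ifnb1 had 1 and 8 UMIs in pDC-like cells.

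Of 6 adaptor and inhibitory receptor genes, 5 were at least 4-fold higher in pDC-like cells of both libraries, beside 7.47% and 8.4% of all genes. Tyrobp, which encodes DAP12, stood at 5638 and 6016 CPM against 52.6 and 40.7 CPM, and Blnk at 716 and 644 CPM against 2.11 and 5.55 CPM. The other one, Hcst, which encodes DAP10, was lower, at 126 and 73.9 CPM against 591 and 427 CPM. Over all genes 11.1% and 14.5% were at least 4-fold lower. Siglech and its adaptor were therefore both high in the same class.

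Of 15 transcriptional partners and opponents, 6 were at least 4-fold higher in each library, beside 7.47% and 8.4% of all genes. In each library 2 were lower, a share near the 11.1% and 14.5% of all genes. Id2 stood at 23.5 and 24.3 CPM in pDC-like cells against 302 and 610 CPM in T cell-like cells, and Bcl11a, a partner of Tcf4, at 315 and 247 CPM against 1.22 and 1.69 CPM. Runx2 had a log2 ratio of 2.72 where labelled WT and 1.61 where labelled dKO, with 733 and 564 CPM in pDC-like cells and 111 and 185 CPM in T cell-like cells. Zbtb46, a factor of conventional dendritic cells, was the other gene lower in both.

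Other interferon-stimulated genes did not share the ratio of Bst2. Of 9 in the table, 0 and 1 (Oasl2) were at least 4-fold higher in pDC-like cells, beside the 7.47% and 8.4% of all genes, and 3 and 4 were lower, beside 11.1% and 14.5%, with a median log2 ratio of −1.24 and −1.43. Isg15 stood at 66.8 and 82.6 CPM in pDC-like cells against 158 and 179 CPM in T cell-like cells, and Rtp4 at 4.62 and 1.74 CPM against 53.5 and 33.2 CPM. Usp18 and Oasl2 went the other way, with log2 ratios of 1.62 and 1.55 and of 1.89 and 3.31. Between the libraries 4 of 8 tested genes were at least 1.5-fold lower in pDC-like cells labelled dKO, beside 11.2% of all genes, and 1, Rsad2, was higher, beside 7.31%. Of the 4, Ifit1 had 9 and 16 UMIs and an interval that spanned 0 (−2.39 to 0.24). In the same comparison 0 of 12 tested genes of nucleic acid sensing and interferon passed 1.5-fold in either direction. Among the adaptors and inhibitory receptors 1 of 6, Hcst, was lower. Among the transcriptional partners and opponents 1 of 14, Zbtb46, passed 1.5-fold higher, a share near the 7.31% of all genes. Zbtb46 had 2 UMIs where labelled WT and 18 where labelled dKO, and its interval spanned 0 (−0.84 to 4.37). Among the relatives of the 10 genes 1 of 13, Ly6a, was higher and 3 were lower (Klk1b27, Klk8 and Irf4).

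Relatives of the 10 genes behaved unequally. Of 24, 13 and 14 had enough UMIs, and 7 were at least 4-fold higher in each library, beside 7.47% and 8.4% of all genes. Among the 7 were Cd300lf, Cd300c2, Cd33 and Ly6c2. The 2 lower were Klk8 and Ly6c1 where labelled WT and Klk8 and Siglece where labelled dKO, a share near the 11.1% and 14.5% of all genes. Ly6c2 stood at 1860 and 1322 CPM in pDC-like cells against 117 and 59.0 CPM, while Ly6c1 stood at 2.94 and 2.06 CPM against 25.5 and 7.09 CPM. Irf4 had a log2 ratio of 0.56 (0.32 to 0.80) where labelled WT and −0.01 (−0.18 to 0.16) where labelled dKO.

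Over 17 points, each a class of at least 50 cells in 1 library, the 10 genes with a pattern most like Siglech, other than the 10 described and the gate markers, were Grm8, Abhd17b, Atp2a1, Iglc3, Fgfr1, Kmo, Tspan2, Gm34680, Fcrla and Ptprf. Their Pearson r on log2(CPM + 1) lay between 0.97 and 0.99 among 8721 genes compared. Of the pDC genes, Klk1 came closest, at 0.97, and Irf8 was the least alike, at 0.84. The 17 points share 2 libraries and rest mainly on the contrast of cells with and without the pDC markers. Grm8 stood at 698 and 404 CPM in pDC-like cells and 2.17 and 5.08 CPM in T cell-like cells.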

How the data were processed

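Droplet RNA and T cell receptor libraries of liver cells sorted as CD4 T cells were analysed, 1 of each kind per label. The authors deposited UMI counts per gene and cell made with Cell Ranger 7.0.1 on mm10, unnormalized and limited to called cells (at least 500 UMIs), and contig tables with whole-number counts of UMIs per chain. As the study did, cells were kept above 200 detected genes and below 5% mitochondrial UMIs.

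The members, marker lists and gene lists were chosen with earlier results of these data known. Counts were summed per class and divided by the total (CPM). Intervals were exact Poisson, conditional binomial or Clopper-Pearson; the code was tested on simulated data. With 1 library per label no count model was fitted. A gene was tested with at least 20 UMIs over both sides, and named by lists and by likeness to Siglech. Lists held 1 symbol not found in the table. A side with 0 counts was set to 3. Doublets were kept; cells meeting several gates stood apart. T cell-like classes needed 1 marker (Foxp3, cytokines) or 2 (cycling, naive-type). A cell that fitted several was taken as cycling first, then Foxp3, naive-type and cytokine. Positions follow GENCODE M21 (GRCm38) and promoters RefSeq GRCm38.p6. Alternatives were gates of 2 or 4 markers, several-gate cells assigned to 1 class, no cell filter, doublets removed, per-cell means, other contig rules, TMM scaling, other thinning, folds and count minimums. Python 3.11.15, numpy 2.4.6, pandas 2.3.3, scipy 1.17.1, matplotlib 3.10.9 and edgeR 4.0.16 (TMM factors) were used.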

Additional observations from a re-analysis of the deposited data

Results flagged for a closer look

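For 4 genes the ratio between the libraries had intervals on opposite sides of 0 in pDC-like and T cell-like cells. These differences were not tested, since each class has 1 library per label. Siglech had a log2 ratio of dKO to WT of −0.32 in pDC-like and 0.65 (0.26 to 1.06) in T cell-like cells, and Irf8 of −0.32 and 1.12 (0.94 to 1.31). Tcf4 had −0.13 and 0.81 (0.53 to 1.10), and Klk1 had −0.048 with an interval just short of 0 and 0.81 (0.25 to 1.39). In T cell-like cells with no pDC marker, Tcf4 was at 0.498% (0.403 to 0.610) and 0.692% (0.588 to 0.810) of its pDC-like level where labelled WT and dKO. Siglech was at 0.127% and 0.268% there, Klk1 at 0.0703% and 0.172% and Irf8 at 0.825% and 2.37%. Of the 4 genes, only the intervals of Tcf4 overlapped between the libraries. Irf8 and Siglech kept both signs under every alternative run. Tcf4 in pDC-like cells turned to 0.16 when each cell's own CPM was averaged and to 0.04 with a gate of 2 markers, and Klk1 to 0.11 in cells of 2000 to under 5000 UMIs, to 0.02 with TMM scaling and to just above 0 with doublets removed.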

How the results depend on the processing

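All 10 genes were at least 4-fold higher in pDC-like than in T cell-like cells under every alternative run, the 8-fold line included, although assigning cells of several gates to 1 class took the median log2 ratio to 5.45 where labelled WT and 4.20 where labelled dKO. Between cells without and with a TRB contig, the count was 9 to 10 where labelled WT and 8 to 10 where labelled dKO under the other alternatives, and 0 in both past 8-fold. Leaving out cells of the pDC gate and another gate, an alternative chosen after seeing the data, raised the median log2 ratio from 2.50 to 4.42 and from 2.24 to 4.75.

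The share of pDC-like cells labelled WT and dKO was 8.66% and 11.1% with a gate of 2 markers, 9.90% and 19.5% with 4, and 12.2% and 20.7% with cells of several gates assigned. It was 18.7% where labelled dKO without cells of the pDC gate and another, and 11.3% and 41.3% in cells of 2000 to under 5000 UMIs, a range also chosen after seeing the data.

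Of genes at least 1.5-fold lower in T cell-like cells labelled dKO, 0 remained with gates of 2 or 4 markers, with cells of several gates assigned, in cells of 2000 to under 5000 UMIs or at 2-fold; Cox6a2 turned to 0.63 with cells of several gates assigned and to 0.26 at that depth. The count higher there was 10 with cells of several gates assigned, 3 with each cell's own CPM averaged and 2 at 2-fold. For the counts in this section, no share of all genes under the same alternative is given, so they are not set against a background. In pDC-like cells the counts higher and lower were 1 and 0 at 2000 to under 5000 UMIs, and 0 were lower at 2-fold. The causes were not tested. With TMM scaling the ratios shifted by 0.07 in pDC-like and 0.03 in T cell-like cells, and no count of genes past 1.5-fold changed. No paired analysis was possible because each label has 1 library. Depth limited the small classes and genes such as Spib and Cd300c in T cell-like cells; differences between mice could not be read.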

Other observations

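Cd8a, which sorted CD4 T cells should lack, was read at 6.72 CPM (3.84 to 10.9) in pDC-like cells labelled WT and 19.7 CPM (16.9 to 22.7) in those labelled dKO. In T cell-like cells it had at most 0.317 CPM.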
